A study of Mus musculus with 23 samples.

Results

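T69A and T6-LOH are mouse pancreatic tumour organoid lines, and their RNA was compared after each line had been grown with the same pancreatic stellate cell (PSC) lines. The comparison rested on 5 of the 23 RNA-seq libraries of the series, taken by their labels as the flow-sorted organoid fraction of co-cultures with lines of the PSC4 parent. The 2 T69A libraries are called 2 and 4, after the leading number of their labels, and the 3 T6-LOH libraries 6, 7 and 8. T69A library 2 and T6-LOH library 6 came from organoids grown with PSC4 Rosa cells, which carry wild-type Egfr. T69A library 4 and T6-LOH library 8 came from organoids grown with the Egfr-knockout PSC4 clone B4, and T6-LOH library 7 from organoids grown with the knockout clone A3. A T69A organoid library with clone A3 was not analysed here.

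Co-culture in Matrigel, with reduced or control medium, lasted 3.5 days, so every organoid compared here had stellate cells beside it and none was grown alone. Egfr was knocked out in the stellate cells only, and the organoids themselves are not labelled as edited. Another line, T12-LOH, was grown with the same PSC4 lines (libraries 10, 11 and 12), and T6-LOH was also grown with PSC5 lines (libraries 14 with PSC5 Rosa, 15 with knockout clone C5 and 16 with knockout clone D4). These serve to place the differences between T69A and T6-LOH, and they also enter the scaling of CPM and the interaction test given last. The labels give no driver alleles, sex or passage for the organoids, and each name stands for 1 line, so the differences are between these lines and not between classes of tumour. The labels do not describe repeated cultures of one combination, and the p-values measure only the spread between these libraries.

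Pancreatic ductal adenocarcinoma arises in a gland that shares its early endodermal ancestry with stomach, liver and gut, and tumour cells often switch on genes of those neighbours. Tumours of the classical type keep endodermal regulators such as GATA6 and secrete gastric mucins and trefoil peptides, whereas basal-like tumours lose them and make squamous keratins. Organoids are cultures of the epithelial tumour cells, and what they share with each other and not with the stroma is the epithelial programme.

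The 5 libraries held between 24053314 and 34643087 estimated read counts. Levels are given in CPM, read counts scaled to library size and composition. Fold changes are log2, T69A over T6-LOH, from edgeR's quasi-likelihood test with the PSC genotype as covariate. A gene was called when its Benjamini-Hochberg adjusted p over all genes tested was under 0.05. In bulk RNA, fewer cells of a type and less RNA per cell cannot be told apart. Epithelial genes were plentiful in both lines, their 20 markers summing to 18615 and 20290 CPM in T69A and 16704, 15130 and 16364 CPM in T6-LOH. Epcam, the epithelial adhesion molecule, measured 431 and 394 CPM in T69A and 1005, 868 and 975 CPM in T6-LOH (log2 fold change -1.24 ± 0.076 SE, adjusted p = 7.7e-07). The ductal keratin Krt19 measured 4075 and 4969 CPM in T69A and 2555, 2246 and 2490.2 CPM in T6-LOH (log2 fold change 0.89 ± 0.10 SE, adjusted p = 5.3e-05). Stellate cell RNA was a trace in both: the median ratio of fibroblast marker levels in an organoid library to those in the PSC library of the same culture was 0.162% and 0.0534% in T69A and 0.0302%, 0.0134% and 0.00694% in T6-LOH. These groups did not overlap (exact permutation test, two-sided p = 0.2, the smallest that 2 libraries against 3 allow). In T6-LOH with PSC5 lines the ratio was 0.0537%, 0.0287% and 0.0450%, so library 14 reached the level of T69A library 4. In T12-LOH it was 0.120%, 0.0581% and 0.0432%, within the range of T69A for libraries 10 and 11. The 24 fibroblast markers summed to 57.5 and 45 CPM in T69A and 19.6, 15.5 and 19.5 CPM in T6-LOH. Of the 9 that could be tested 6 were called higher in T69A and none lower, where 26.9% and 28.6% of all genes tested were. Among them was Col1a1, a fibrillar collagen, at 11.4 and 3.06 CPM in T69A and 1.64, 0.342 and 0.685 CPM in T6-LOH. With all 6 T6-LOH libraries, those with PSC5 lines included, 4 of 9 markers were higher and none lower. The pericyte receptor Pdgfrb was at 0.309 and 0.0413 CPM in T69A and 0.117, 0.0683 and 0 CPM in T6-LOH. Markers of other cells were low: the 12 of immune cells summed to 23.5 and 17.5 CPM in T69A and 29.9, 22.2 and 23.7 CPM in T6-LOH, mostly Cd68, with Cd3e, Adgre1 and Tyrobp at 0. The 10 endothelial markers summed to at most 3.55 CPM in any of the 5 libraries, the 11 acinar markers to at most 9.65 CPM and the 12 endocrine markers to at most 0.137 CPM. The T69A libraries also had a larger share of reads in their 100 most abundant genes, 24.4% and 22% against 20.7%, 20.9% and 20.3% in T6-LOH. They had fewer genes with at least 10 counts, 13188 and 13059 against 13747, 13600 and 13563 in T6-LOH. Neither measure overlapped between the lines (exact permutation test, two-sided p = 0.2 for each), and their part in the differences below was not tested. Mitochondrial genes took 4.96% and 3.23% of reads in T69A and 3.5%, 3.91% and 3.56% in T6-LOH. The part of the stellate trace in differences of matrix genes at such low levels was not tested.

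The lines differed at the majority of the genes tested: 7723 of 13910 genes tested were called (55.5%), 3741 higher in T69A (26.9%) and 3982 lower (28.6%). The median over all genes was 0.00 on the log2 scale. With a change of at least 2-fold required as well, 1973 genes (14.2%) were called, 887 of them higher in T69A (6.38%) and 1086 lower (7.81%). With so many genes called, the counts of each gene group below are to be read against these shares. Both T69A libraries lay above all 3 T6-LOH libraries for 34.9% of genes and below them for 34.5%. Of those genes 81.4% and 80.8% kept the same side of both T69A libraries in the 3 T6-LOH libraries grown with PSC5 lines, which the comparison did not use. The T69A libraries were the same in both, so these shares say nothing of the spread of T69A.

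The 12 genes that were higher in T69A by the widest margin were, but for Col4a1 and Adgrg2, under 1 CPM in every T6-LOH library. Ptprm, a receptor tyrosine phosphatase that acts in cell adhesion, stood at 55.7 and 47.6 CPM in T69A and 0.41, 0.308 and 0.308 CPM in T6-LOH (log2 fold change 7.16 ± 0.13 SE, adjusted p = 1.2e-09). Gata6, the endodermal transcription factor that marks the classical subtype, measured 31.1 and 31.5 CPM in T69A and 0.674, 0.273 and 0.171 CPM in T6-LOH (log2 fold change 6.30 ± 0.29 SE, adjusted p = 9.5e-06). Both T69A values for Gata6 were near each other and more than an order of magnitude above every T6-LOH value. Atp10a, a phospholipid flippase, was at 36 and 21.5 CPM in T69A and 0.0293, 0 and 0.103 CPM in T6-LOH (log2 fold change 9.12 ± 0.30 SE, adjusted p = 6.3e-08). Gkn2, a gastrokine made by the stomach lining, was at 17.1 and 17.8 CPM in T69A and 0.792, 0.41 and 0.274 CPM in T6-LOH (log2 fold change 5.07 ± 0.26 SE, adjusted p = 1.3e-06). Tspan6 and Adgrg2, encoding a tetraspanin and an adhesion receptor, had log2 fold changes of 5.67 ± 0.21 and 4.69 ± 0.16 SE, with adjusted p-values of 7.4e-08 and 3.5e-08.

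Another 4 of the 12 had no read in any T6-LOH library. Zrsr1, an imprinted gene for a splicing factor, gave 16.9 and 15.7 CPM in T69A, at least 505-fold higher than the level of 3 counts over the T6-LOH libraries. On the same floor the fatty acid transporter Slc27a6 (12.7 and 15.8 CPM in T69A) was at least 442-fold higher, dystrophin, Dmd (13.6 and 11.5 CPM in T69A), at least 388-fold and the IGF-binding protein Igfbp3 (13.4 and 11.3 CPM in T69A) at least 382-fold. All 4 were present in every T12-LOH library, from 3.48, 5.47 and 5.38 CPM for Slc27a6 to 51.3, 39.8 and 46.4 CPM for Igfbp3. T6-LOH was the one line of the 3 without them, and in its PSC5 co-cultures Zrsr1 was at 0.0331, 0.0338 and 0.0334 CPM and Igfbp3 at 0.0662, 0.0338 and 0.0334 CPM.

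Col4a1, which encodes a type IV collagen chain of basement membranes, had the highest level per transcript length of the 12, a mean of 131 TPM in T69A, and measured 486 and 546 CPM in T69A and 47.1, 43.8 and 26.6 CPM in T6-LOH (log2 fold change 3.70 ± 0.34 SE, adjusted p = 0.0083). Its head-to-head neighbour and partner chain Col4a2 measured 504 and 485 CPM in T69A and 55.6, 46.6 and 29.8 CPM in T6-LOH (log2 fold change 3.45 ± 0.29 SE, adjusted p = 0.0043; named after its values were seen). Stellate cells also make type IV collagen. The stellate share of RNA given above, a median over markers, corresponds to 0.985 CPM of Col4a1 in the T69A library with the larger estimate. That is an estimate without the spread between markers, and the part of stellate RNA in Col4a1 was not tested. T12-LOH lay between the lines, at 169.7, 148 and 136 CPM for Col4a1.

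**Figure D1:**
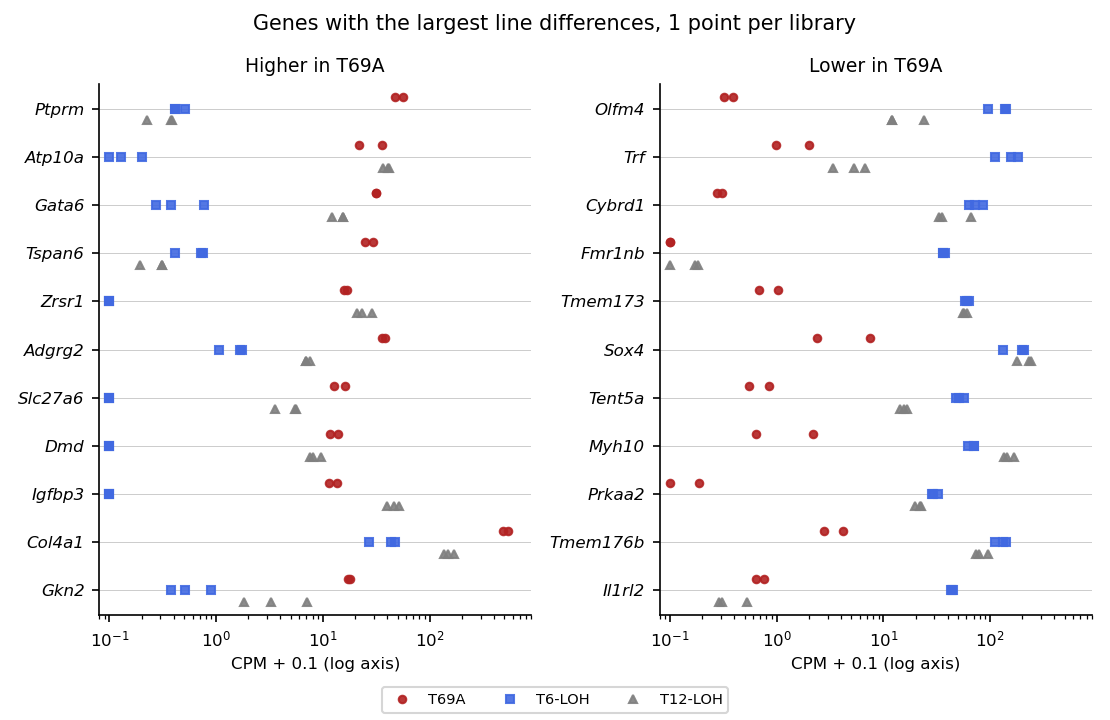
Levels of genes among the 12 per direction with the largest difference in mean log2(CPM + 1) between T69A and T6-LOH, in CPM + 0.1 on a log axis; each point is 1 library of T69A (circles), T6-LOH (squares) or T12-LOH (triangles). The T69A points lie apart from the T6-LOH points for every gene shown, and the T12-LOH points sit near T69A for some genes (Zrsr1, Dmd) and near T6-LOH for others (Tmem173, Sox4, Prkaa2).

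Among the 12 genes lower in T69A by the widest margin, Olfm4, a secreted glycoprotein that marks stem cells of the gut, was at 0.221 and 0.289 CPM in T69A and 140.1, 139 and 96.3 CPM in T6-LOH (log2 fold change -8.95 ± 0.39 SE, adjusted p = 0.00013). Tmem173, which encodes the DNA-sensing adaptor STING, was at 0.928 and 0.579 CPM in T69A and 60.9, 63.9 and 58.3 CPM in T6-LOH (log2 fold change -6.36 ± 0.16 SE, adjusted p = 3.2e-09). Sox4, a transcription factor of progenitor cells, was at 7.42 and 2.27 CPM in T69A and 209.5, 132 and 199.7 CPM in T6-LOH (log2 fold change -5.41 ± 0.56 SE, adjusted p = 0.013). The T69A values for Sox4 differed between the libraries, with library 2 the higher, and both stayed far under T6-LOH. Without T6-LOH library 7 the call of Sox4 was lost (log2 fold change −5.49, adjusted p = 0.085), as it was with the PSC line in place of the PSC genotype as covariate (−5.50, adjusted p = 0.094). Il1rl2, the receptor for IL-36 cytokines, was at 0.663 and 0.537 CPM in T69A and 43.2, 45.1 and 43.9 CPM in T6-LOH (log2 fold change -6.20 ± 0.15 SE, adjusted p = 3.1e-09).

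Trf, transferrin, was at 0.883 and 1.9 CPM in T69A and 183, 157 and 111 CPM in T6-LOH (log2 fold change -6.77 ± 0.50 SE, adjusted p = 0.0044). The ferric reductase Cybrd1 was at 0.177 and 0.207 CPM in T69A and 63.4, 85 and 72.1 CPM in T6-LOH (log2 fold change -8.51 ± 0.19 SE, adjusted p = 3.1e-09). Prkaa2, an AMPK catalytic subunit, had 2 counts over both T69A libraries (0.0883 and 0 CPM) against 28.5, 32.5 and 28.7 CPM in T6-LOH (adjusted p = 2.4e-08). That is a ratio of 0.00137 T69A over T6-LOH (95% interval 0.000166 to 0.00497), an interval for counting error only.

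Fmr1nb, known in humans as a cancer-testis antigen, had no read in T69A and 37.6, 36.3 and 36.3 CPM in T6-LOH, at least 600-fold lower in T69A. Also among the 12 were the poly(A) polymerase Tent5a (log2 fold change -6.43 ± 0.19 SE, adjusted p = 1.5e-08), the non-muscle myosin Myh10 (-5.73 ± 0.46 SE, adjusted p = 0.0029) and Tmem176b (-5.23 ± 0.20 SE, adjusted p = 8.3e-06), a membrane protein of leukocytes and epithelia. With the PSC line as covariate the call of Myh10 was lost (−5.69, adjusted p = 0.058). T12-LOH resembled T69A in the absence of Fmr1nb (0.0704, 0 and 0.0834 CPM) and the low Il1rl2 (0.422, 0.186 and 0.209 CPM), and resembled T6-LOH in Tmem173 (55.7, 56.7 and 60.3 CPM) and Sox4 (240.2, 180.2 and 229 CPM). In the 3 PSC5 co-cultures of T6-LOH all 12 genes of each direction stayed on the T6-LOH side of both T69A libraries, Gata6 at 0.364, 0.811 and 0.468 CPM and Olfm4 at 84.3, 137 and 134 CPM among them. The same T69A libraries had served to pick these genes, so their place says nothing of the spread of T69A.

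Transcripts absent from one line and present in the other were more numerous in one direction. There were 51 protein-coding genes with at most 3 counts over both T69A libraries and at least 2 CPM in each T6-LOH library, 23 of them with 0 counts. There were 15 genes with at most 3 counts over the 3 T6-LOH libraries and at least 2 CPM in each T69A library, 9 with 0 counts. The T69A libraries were fewer, so the first limit is reached more easily, and these lists were picked by their values and carry no test. The genes absent from T69A lay on 17 chromosomes and those absent from T6-LOH on 10. Among those missing in T69A were the inflammasome genes Casp1 (0 and 0.0413 CPM in T69A and 6.54, 7.48 and 6.85 CPM in T6-LOH) and Aim2 (0 and 0.0413 CPM in T69A and 8.71, 6.36 and 5.82 CPM in T6-LOH). Others were the planar polarity genes Ror2 (0 and 0 CPM in T69A and 14.3, 11.5 and 12.4 CPM in T6-LOH) and Vangl2 (0 and 0.124 CPM in T69A and 9.03, 7.35 and 10.8 CPM in T6-LOH). The basement membrane chain Col4a6 was missing too (0 and 0 CPM in T69A and 10.5, 9.12 and 9.01 CPM in T6-LOH). These 5 were chosen after their values were seen. T12-LOH expressed 17 of the 51 at 2 CPM or more in all 3 libraries, Ror2 among them at 12.9, 14.1 and 12 CPM, and had at most 3 counts for 7.

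Of 32 lineage transcription factors tested 11 were higher in T69A and 10 lower, near the 26.9% and 28.6% of all genes tested. Foxa2, a pioneer factor of the endoderm, measured 46.6 and 46.1 CPM in T69A and 7.92, 8.44 and 6.23 CPM in T6-LOH (log2 fold change 2.60 ± 0.12 SE, adjusted p = 2.0e-07). Its relative Foxa1 went the other way, with 47.6 and 41.9 CPM in T69A and 139.6, 131 and 139 CPM in T6-LOH (log2 fold change -1.64 ± 0.075 SE, adjusted p = 1.1e-07). Gata4, a partner of Gata6 in stomach and pancreas development, measured 84.9 and 106 CPM in T69A and 45.2, 53.3 and 48.1 CPM in T6-LOH (log2 fold change 0.99 ± 0.076 SE, adjusted p = 3.3e-06). The levels of all 3 factors in T12-LOH, 37.5, 37.1 and 36.6 CPM for Foxa2, 62.5, 67 and 62.3 CPM for Foxa1 and 129.9, 108 and 107 CPM for Gata4, were nearer to T69A than to T6-LOH. Gata6 was at 12.1, 15.4 and 15.5 CPM in T12-LOH, under T69A (log2 fold change T69A over T12-LOH 1.17 ± 0.10 SE, adjusted p = 3.0e-05).

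Isx, an intestinal homeobox factor, was at 1.19 and 2.6 CPM in T69A and 18.8, 26.4 and 29.6 CPM in T6-LOH (log2 fold change -3.63 ± 0.16 SE, adjusted p = 8.3e-08). Mnx1, a homeobox factor of the early pancreas, was at 0.177 and 0.124 CPM in T69A and 3.52, 3.28 and 3.19 CPM in T6-LOH (log2 fold change -4.47 ± 0.39 SE, adjusted p = 7.3e-06). Pdx1, the master regulator of pancreas formation, measured 55.6 and 59.9 CPM in T69A and 35.9, 44.2 and 44.3 CPM in T6-LOH (log2 fold change 0.51 ± 0.077 SE, adjusted p = 0.00029). Pdx1 was named after its values were seen.

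Gastric products stood on both sides, and the genes named here do not stand for the list. Of 27 mucin, trefoil and goblet genes tested, 12 were higher in T69A and 10 lower, where 26.9% and 28.6% of all genes were. By at least 2-fold it was 7 higher and 8 lower. Gkn1, a gastrokine, measured 40.5 and 34.4 CPM in T69A and 3.37, 1.91 and 2.47 CPM in T6-LOH (log2 fold change 3.79 ± 0.13 SE, adjusted p = 2.4e-08). Muc5ac, the main gel-forming mucin of the stomach surface, measured 118 and 96 CPM in T69A and 20.6, 16 and 11.4 CPM in T6-LOH (log2 fold change 2.67 ± 0.15 SE, adjusted p = 4.5e-05). Gcnt3, a glycosyltransferase that builds mucin glycans, measured 359 and 397 CPM in T69A and 128, 137 and 122 CPM in T6-LOH (log2 fold change 1.55 ± 0.075 SE, adjusted p = 1.6e-07). In T12-LOH Muc5ac was at 145, 136 and 94.3 CPM and Gcnt3 at 339, 392 and 472 CPM, and neither was called between T69A and T12-LOH (log2 fold changes -0.28 ± 0.17 and -0.04 ± 0.094 SE, adjusted p = 0.23 and 0.77).

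On the other side stood Muc3, a membrane mucin of the intestine whose reads may be shared with related copies, at 1.59 and 3.22 CPM in T69A and 3.96, 14 and 17.2 CPM in T6-LOH (log2 fold change -1.95 ± 0.23 SE, adjusted p = 0.00014). The trefoil peptides were split. Tff1 was at 1259.5 and 2197 CPM in T69A and 435, 469.6 and 384 CPM in T6-LOH (log2 fold change 2.01 ± 0.26 SE, adjusted p = 0.01). Tff2 was at 12.3 and 28.4 CPM in T69A and 78.5, 131 and 107 CPM in T6-LOH (log2 fold change -2.32 ± 0.19 SE, adjusted p = 0.0006). Both trefoil genes were named after their values were seen. The call of Tff1 was lost with the PSC line as covariate (2.03, adjusted p = 0.057), and that of Muc3 with no covariate (−2.28, adjusted p = 0.069).

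The classical programme as a list leaned towards T69A: 12 of 22 genes tested were higher and 6 lower, where 26.9% and 28.6% of all genes were. Its median was 0.52 on the log2 scale, where the median over all genes was 0.00. Cldn18, the stomach claudin, measured 688 and 805 CPM in T69A and 341, 320.2 and 310.0 CPM in T6-LOH (log2 fold change 1.20 ± 0.082 SE, adjusted p = 1.8e-06), and only 4.12, 3.45 and 3.67 CPM in T12-LOH. The galactose-binding lectin Lgals4 measured 2231 and 2696 CPM in T69A and 1103, 1108 and 1041 CPM in T6-LOH (log2 fold change 1.18 ± 0.085 SE, adjusted p = 2.1e-06). Vsig2, an immunoglobulin-domain membrane protein of the stomach, named after its values were seen, had 9.32 and 6.41 CPM in T69A, 0, 0.137 and 0.0685 CPM in T6-LOH (log2 fold change 6.76 ± 0.53 SE, adjusted p = 1.8e-05) and 0.879, 0.653 and 1.0 CPM in T12-LOH. The main exception was the adhesion molecule Ceacam1, at 129.6 and 85.5 CPM in T69A and 828, 814 and 785 CPM in T6-LOH (log2 fold change -2.99 ± 0.14 SE, adjusted p = 8.1e-06). The iron exporter Slc40a1 was also lower, at 138 and 176 CPM in T69A and 319, 481 and 450.1 CPM in T6-LOH (log2 fold change -1.33 ± 0.077 SE, adjusted p = 5.5e-07). Against T12-LOH 57% of all genes were called, 27.7% higher in T69A and 29.3% lower, and 15 of 22 classical genes were higher and 3 lower. The T69A libraries are shared by both comparisons.

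**Figure D2:**
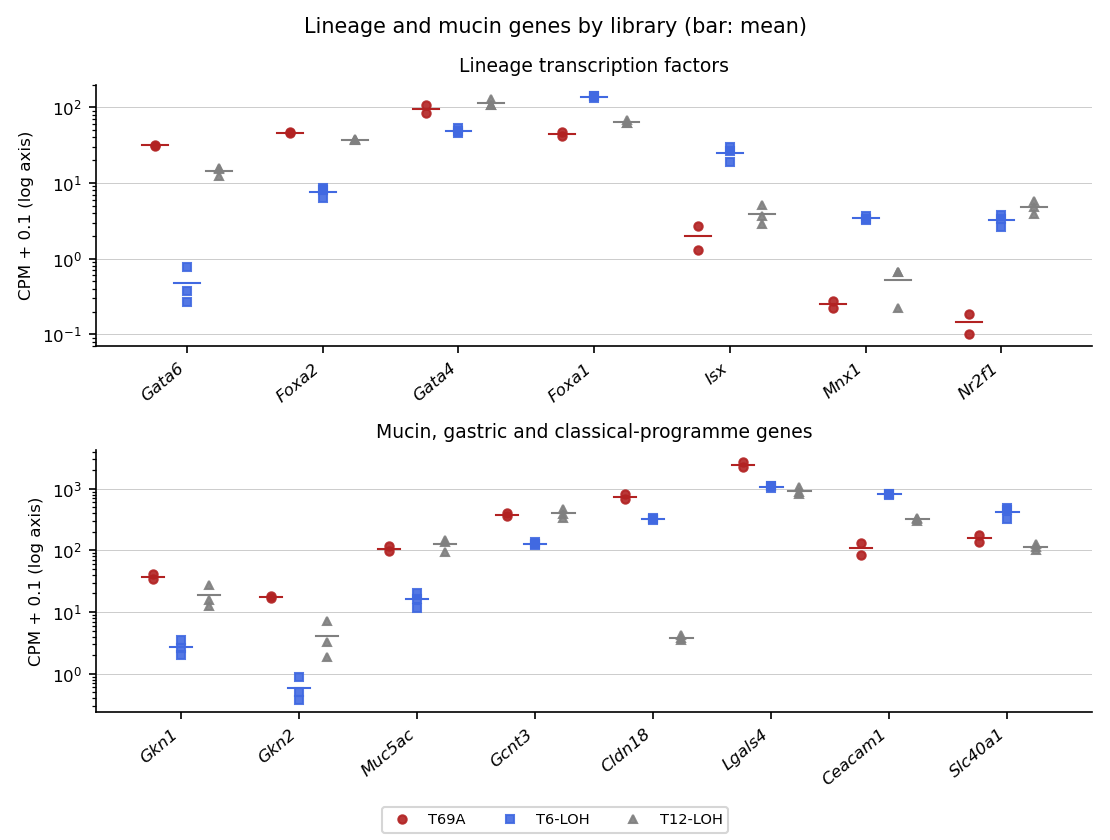
Lineage transcription factors (top) and mucin, gastric and classical genes (bottom) in CPM + 0.1 on a log axis, 1 point per library and a bar at the mean of each line, T69A left of T6-LOH and T12-LOH. Gata6, Foxa2, Gkn1 and Muc5ac lie high in T69A and T12-LOH and low in T6-LOH, and Foxa1, Isx, Mnx1 and Ceacam1 lie highest in T6-LOH. For Gkn2 T12-LOH lies between T69A and T6-LOH.

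Basal-like and squamous genes gave no common direction in their calls, with 7 of 22 tested higher in T69A and 6 lower, near the 26.9% and 28.6% of all genes. Without T69A library 4 it was 4 and 4, and the median on the log2 scale was −0.14, against 0.08 with all 5 libraries. Relative to the chromosome medians described below, 15 of the 22 genes lay above and 7 below. On that scale the median of the list was 0.40, and that of the classical list was 0.43. Scel, a protein of the squamous cell envelope, measured 35.7 and 28.9 CPM in T69A and 7.01, 7.45 and 7.16 CPM in T6-LOH (log2 fold change 2.13 ± 0.11 SE, adjusted p = 2.8e-07). Sprr1a, another envelope protein, measured 597 and 610.0 CPM in T69A and 241, 167 and 199 CPM in T6-LOH (log2 fold change 1.54 ± 0.12 SE, adjusted p = 8.1e-05). The cadherin Fat2 was lower, at 4.81 and 3.47 CPM in T69A and 32.4, 24.8 and 25.6 CPM in T6-LOH (log2 fold change -2.82 ± 0.11 SE, adjusted p = 5.3e-08). Of 16 genes of the epithelial-mesenchymal transition 6 were higher and 5 lower. Cdh1, E-cadherin, measured 1424 and 1456 CPM in T69A and 903, 872 and 887 CPM in T6-LOH (log2 fold change 0.69 ± 0.067 SE, adjusted p = 1.6e-05).

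Of 21 tight junction genes tested 8 were higher in T69A and 7 lower, and without T69A library 2 or T6-LOH library 6 the number higher was 5. Cldn8, a sealing claudin, was at 0.221 and 1.28 CPM in T69A and 26.1, 55.5 and 46.8 CPM in T6-LOH (log2 fold change -5.69 ± 0.25 SE, adjusted p = 3.3e-06). The pore-forming Cldn2 measured 263 and 194 CPM in T69A and 579, 522 and 516 CPM in T6-LOH (log2 fold change -1.31 ± 0.080 SE, adjusted p = 7.9e-07). Cldn3 measured 172 and 166 CPM in T69A and 331, 351 and 374 CPM in T6-LOH (log2 fold change -1.06 ± 0.075 SE, adjusted p = 1.9e-06). Cldn18, described above, was among the members that were higher. In T12-LOH Cldn2 stood at 162, 223 and 201 CPM, Cldn3 at 140.5, 121 and 140.3 CPM and Cldn8 at 0.176, 0.373 and 0.584 CPM, so that T6-LOH was the highest of the 3 lines for each.

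Integrins, laminins and related basement membrane genes were higher in T69A for 11 of 26 tested and lower for 4. Perlecan, Hspg2, measured 298 and 285 CPM in T69A and 109.6, 122 and 126 CPM in T6-LOH (log2 fold change 1.29 ± 0.074 SE, adjusted p = 5.2e-07). The subunits of the hemidesmosome integrin, Itga6 and Itgb4, rose by 0.53 ± 0.065 and 0.49 ± 0.065 SE on the log2 scale (adjusted p = 7.2e-05 and 0.00012). Nidogen, Nid1, which links laminin to type IV collagen, moved against them, with 29.1 and 44.2 CPM in T69A and 118, 126 and 173 CPM in T6-LOH (log2 fold change -1.88 ± 0.17 SE, adjusted p = 0.00057; named after its values were seen). The fibronectin receptor subunit Itga5 was also lower, at 1.99 and 1.7 CPM in T69A and 9.97, 5.13 and 8.56 CPM in T6-LOH (log2 fold change -2.17 ± 0.26 SE, adjusted p = 0.00013).

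Axon guidance genes, which also steer epithelial and vascular cells, were called higher in T69A for 21 of 39 tested and lower for 10, or 6 without T69A library 4. The ligands Slit1 and Slit2 went in opposite directions. Slit1 measured 20.3 and 26.2 CPM in T69A and 2.76, 3.21 and 2.74 CPM in T6-LOH (log2 fold change 3.02 ± 0.13 SE, adjusted p = 8.0e-08). Slit2 measured 4.9 and 9.47 CPM in T69A and 43.2, 60.4 and 60.7 CPM in T6-LOH (log2 fold change -2.87 ± 0.12 SE, adjusted p = 5.5e-08). The netrin receptor Neo1 measured 243 and 230.1 CPM in T69A and 113, 114 and 115 CPM in T6-LOH (log2 fold change 1.04 ± 0.066 SE, adjusted p = 1.0e-06). Neo1 lies on chromosome 9 between Ireb2 and Adpgk, where the median log2 fold change of a window of 40 genes was 0.86. The part of its position was not tested. Plxnb1, a plexin that receives semaphorin signals, was lower at 38.7 and 29.9 CPM in T69A and 109, 97 and 113 CPM in T6-LOH (log2 fold change -1.68 ± 0.10 SE, adjusted p = 1.8e-06).

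Wnt signalling has ligands that need Porcn for secretion, Frizzled receptors, and target genes such as Axin2, Lgr5, Sp5 and Ascl2. Of 28 Wnt genes tested 7 were higher in T69A and 11 lower, where 26.9% and 28.6% of all genes were. By at least 2-fold it was 5 and 8, where 6.38% and 7.81% of all genes were. Among ligands, Wnt4 measured 41.9 and 50.6 CPM in T69A and 18.4, 26.4 and 29.5 CPM in T6-LOH (log2 fold change 0.98 ± 0.10 SE, adjusted p = 1.7e-05). Wnt7a measured 58.4 and 43.2 CPM in T69A and 32.3, 20.8 and 25.6 CPM in T6-LOH (log2 fold change 0.87 ± 0.095 SE, adjusted p = 3.3e-05). Porcn measured 134 and 88.3 CPM in T69A and 33.4, 24.1 and 31.4 CPM in T6-LOH (log2 fold change 1.81 ± 0.13 SE, adjusted p = 5.8e-05). Receptors were mixed: Fzd4 rose (1.37 ± 0.11 SE, adjusted p = 3.9e-06), and Fzd6 (-1.34 ± 0.083 SE, adjusted p = 7.9e-07) and Fzd2 (-1.19 ± 0.15 SE, adjusted p = 9.2e-05) fell.

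These 4 target genes, which were all lower in T69A, were named after their values were seen and do not stand for Wnt targets in general. Lgr5, the R-spondin receptor of gut stem cells, was at 2.83 and 0.744 CPM in T69A and 30.8, 19.8 and 23.2 CPM in T6-LOH (log2 fold change -3.99 ± 0.30 SE, adjusted p = 0.00022). Axin2, a feedback inhibitor, was at 7.07 and 1.41 CPM in T69A and 39.7, 37.1 and 31.7 CPM in T6-LOH (log2 fold change -3.33 ± 0.64 SE, adjusted p = 0.043). Ascl2 was at 0.0883 and 0.0827 CPM in T69A and 1.7, 2.02 and 1.3 CPM in T6-LOH (log2 fold change -4.24 ± 0.55 SE, adjusted p = 0.00011). Sp5 was at 0.795 and 0.0413 CPM in T69A and 4.98, 3.45 and 3.22 CPM in T6-LOH (log2 fold change -3.55 ± 0.57 SE, adjusted p = 0.0016). Without T6-LOH library 7 or 8 the call of Axin2 was lost (log2 fold changes −3.25 and −3.33, adjusted p = 0.16 and 0.17), as it was with the PSC line as covariate (−3.24, adjusted p = 0.18). For Lgr5, Axin2 and Sp5 the T69A library grown with Rosa PSCs was above the one grown with clone B4. In T12-LOH Lgr5 was at 10.7, 8.86 and 4.05 CPM, Axin2 at 7.84, 4.82 and 1.33 CPM and Sp5 at 14.7, 10.7 and 7.76 CPM.

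Notch, Hedgehog, TGF-beta and YAP genes followed. Of 15 Notch genes 4 were higher in T69A and 8 lower, but 4 and 4 without T69A library 4. Relative to the median of their chromosomes 8 Notch genes lay above and 7 below. The ligand Jag1 was at 75.2 and 64.8 CPM in T69A and 143, 112 and 119.9 CPM in T6-LOH (log2 fold change -0.88 ± 0.071 SE, adjusted p = 4.5e-06). The target Hes1 was at 213 and 249 CPM in T69A and 259, 283 and 311 CPM in T6-LOH (log2 fold change -0.28 ± 0.070 SE, adjusted p = 0.0064; Hes1 named after its values were seen). Of 9 Hedgehog genes 5 were higher and 2 lower, and with any 1 of the 5 libraries left out 4 or 5 were higher and at most 1 lower. The ligand Ihh, which tumour epithelium sends to its stroma, measured 26.6 and 34.5 CPM in T69A and 3.72, 3.79 and 3.19 CPM in T6-LOH (log2 fold change 3.10 ± 0.14 SE, adjusted p = 8.4e-08). T12-LOH held 10.5, 12.6 and 9.3 CPM. Of 28 TGF-beta and BMP genes 6 were higher and 11 lower (7 without T69A library 4), among them the receptors Tgfbr1 (-0.94 ± 0.078 SE, adjusted p = 5.4e-06) and Bmpr1a (-0.53 ± 0.071 SE, adjusted p = 0.00014). Of 26 YAP and TEAD genes 7 were higher and 6 lower, near the shares of all genes, and 2 were higher and 14 lower against T12-LOH. Against T6-LOH 4 were higher without T69A library 4 or without T6-LOH library 6. The receptor kinase Axl measured 51.4 and 36.4 CPM in T69A and 14.7, 13.4 and 16.4 CPM in T6-LOH (log2 fold change 1.5 ± 0.14 SE, adjusted p = 7.0e-05), and 85, 80.1 and 67.8 CPM in T12-LOH.

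The EGF receptor was itself higher in T69A. Egfr measured 148 and 129 CPM in T69A and 92.8, 74.5 and 86.4 CPM in T6-LOH (log2 fold change 0.67 ± 0.077 SE, adjusted p = 4.8e-05). The T69A libraries lay above all 3 T6-LOH libraries. The feedback inhibitor Errfi1 measured 454 and 422 CPM in T69A and 291, 306 and 308 CPM in T6-LOH (log2 fold change 0.53 ± 0.069 SE, adjusted p = 0.00011). Lrig3, a membrane protein of the LRIG family, measured 47.3 and 38.9 CPM in T69A and 70.6, 61.8 and 59.7 CPM in T6-LOH (log2 fold change -0.63 ± 0.072 SE, adjusted p = 4.8e-05). The ligand Nrg2 was low in both lines, at 1.99 and 2.89 CPM in T69A and 0.147, 0.171 and 0.171 CPM in T6-LOH (log2 fold change 3.91 ± 0.41 SE, adjusted p = 2.4e-05). Over the family 6 of 17 tested were higher and 3 lower, or 1 lower without T69A library 4. Genes induced or used as feedback by the MAPK pathway were split, 9 of 26 higher and 11 lower, or 7 lower without T69A library 4. Dusp5 rose by 0.86 ± 0.090 SE (adjusted p = 4.2e-05) and Phlda1 by 0.88 ± 0.078 SE (adjusted p = 8.5e-06). Spry1 changed by -0.80 ± 0.094 SE (adjusted p = 5.6e-05) and Spred1 by -0.72 ± 0.080 SE (adjusted p = 4.0e-05).

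Over the 38 driver genes of pancreatic cancer tested 9 were higher and 11 lower, near the 26.9% and 28.6% of all genes. Without T6-LOH library 7 the number lower was 7. Trp53 measured 125 and 125 CPM in T69A and 115, 127 and 131 CPM in T6-LOH (log2 fold change 0.02 ± 0.072 SE, adjusted p = 0.87). Smad4 measured 79.9 and 74.4 CPM in T69A and 80.0, 77.8 and 81 CPM in T6-LOH (log2 fold change -0.06 ± 0.067 SE, adjusted p = 0.44). Cdkn2a measured 177 and 212 CPM in T69A and 168, 167 and 195 CPM in T6-LOH (log2 fold change 0.15 ± 0.082 SE, adjusted p = 0.13). None of these 3 was called. Myc was called, at 161 and 138 CPM in T69A and 195, 202 and 208 CPM in T6-LOH (log2 fold change -0.45 ± 0.080 SE, adjusted p = 0.0008). Myc lies on chromosome 15 between Med30 and St3gal1, where the median log2 fold change of a window of 40 genes was −0.84. The part of its position in the difference was not tested. Gnas, the stimulatory G protein subunit, measured 297 and 264 CPM in T69A and 617, 581 and 608 CPM in T6-LOH (log2 fold change -1.13 ± 0.070 SE, adjusted p = 7.9e-07).

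Targets of p53 were called higher in T69A for 10 of 33 and lower for 4, where 26.9% and 28.6% of all genes were. Sulf2, an extracellular sulfatase, measured 47.1 and 33.2 CPM in T69A and 6.19, 4.34 and 2.95 CPM in T6-LOH (log2 fold change 3.06 ± 0.14 SE, adjusted p = 5.1e-07). Cyclin G1, Ccng1, measured 84.7 and 88.4 CPM in T69A and 41.1, 42.5 and 37.8 CPM in T6-LOH (log2 fold change 1.09 ± 0.077 SE, adjusted p = 1.9e-06). Cdkn1a, the p21 inhibitor of the cell cycle, was at 71.4 and 44.5 CPM in T69A and 87, 63.5 and 60.3 CPM in T6-LOH with overlapping libraries (log2 fold change -0.40 ± 0.076 SE, adjusted p = 0.0012; named after its values were seen). Without the covariate its call was lost (−0.29, adjusted p = 0.39). It was higher in T12-LOH, at 237, 117 and 124 CPM.

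Proliferation genes were the list most often lower in T69A. Of 40 cell cycle genes tested 28 were lower in T69A and 3 higher, where 28.6% and 26.9% of all genes were. The median of the list was −0.47 on the log2 scale. In both T69A libraries 30 lay below all T6-LOH libraries, as 34.5% of all genes did. The shifts were small, and 2 of the 28 reached 2-fold. Mcm3, a subunit of the replicative helicase, measured 134 and 148 CPM in T69A and 402, 403 and 388 CPM in T6-LOH (log2 fold change -1.50 ± 0.074 SE, adjusted p = 1.8e-07). Pcna, the replication clamp, measured 200.2 and 206 CPM in T69A and 391, 378 and 382 CPM in T6-LOH (log2 fold change -0.93 ± 0.067 SE, adjusted p = 2.0e-06). The spindle checkpoint kinase Bub1 measured 49.6 and 60.1 CPM in T69A and 108, 106 and 107 CPM in T6-LOH (log2 fold change -0.96 ± 0.080 SE, adjusted p = 5.8e-06). T12-LOH was between them, at 230.1, 247 and 202 CPM for Mcm3 and 272, 296 and 278 CPM for Pcna, and against it 4 genes were higher in T69A and 30 lower.

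The 3 genes that rose were the cyclins Ccnd1 (0.64 ± 0.070 SE, adjusted p = 3.4e-05) and Ccnd2 (0.98 ± 0.15 SE, adjusted p = 0.0034) and the ribonucleotide reductase subunit Rrm2 (0.32 ± 0.079 SE, adjusted p = 0.0064). The proliferation antigen Mki67 measured 341 and 422 CPM in T69A and 367, 428 and 407 CPM in T6-LOH and was not called (adjusted p = 0.58). Ccnd2, Rrm2 and Mki67 were named after their values were seen, and without T69A library 4 the call of Rrm2 was lost (log2 fold change 0.18, adjusted p = 0.20). Relative to the median of its chromosome, the median of the list was −0.49 and 34 of the 40 members lay below it.

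Interferon-stimulated genes were, among lists of 20 or more, the one most often higher in T69A in the PSC4 co-cultures, with 20 of 31 tested higher in T69A, 2 lower and a median of 0.97 on the log2 scale. Of all genes tested 26.9% were higher and 28.6% lower. By at least 2-fold 14 of the 31 were higher, where 6.38% of all genes were. In both T69A libraries 15 of the 31 interferon-stimulated genes lay above all 3 T6-LOH libraries, as 34.9% of all genes did. These genes are switched on when interferon receptors send a complex that holds Stat2 and Irf9 to a promoter element built from repeats of GAAA. The element is shown here upstream of 4 of the genes that rose, because they share it; each stretch of 120 bases is from RefSeq (GRCm38.p6), 5′ to 3′ on the gene's strand, and matches to GAAANNGAAA on either strand are in capitals. The stretches are chr19:34583337-34583456 on the plus strand for Ifit3, an inhibitor of viral translation, chr5:120777660-120777779 on the minus strand for Oas3, an oligoadenylate synthetase, chr8:71537547-71537666 on the minus strand for Bst2, a tether of budding virus, and chr10:128270248-128270367 on the plus strand for Stat2.
Ifit3: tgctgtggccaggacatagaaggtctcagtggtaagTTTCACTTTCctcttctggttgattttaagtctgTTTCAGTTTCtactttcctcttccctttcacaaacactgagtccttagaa
Oas3: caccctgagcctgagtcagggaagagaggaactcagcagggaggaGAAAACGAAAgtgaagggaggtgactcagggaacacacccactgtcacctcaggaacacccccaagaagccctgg
Bst2: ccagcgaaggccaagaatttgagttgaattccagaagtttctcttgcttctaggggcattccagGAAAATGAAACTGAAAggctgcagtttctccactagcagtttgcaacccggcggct
Stat2: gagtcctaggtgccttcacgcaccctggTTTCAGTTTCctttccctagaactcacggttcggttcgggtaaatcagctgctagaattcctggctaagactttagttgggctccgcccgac

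The motif was searched from 250 bases before to 50 after each gene's start. A gene with several matches, overlapping as in Bst2 or apart, was counted once. It was present in 15 of the 22 tested interferon-stimulated genes that have a promoter sequence (68.2%). Of the 13 of these that were higher in T69A 9 had it (69.2%). Over all genes with a promoter sequence it was present in 1079 of 27025 (3.99%). A match is a description of letters and not a measured binding site.

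Levels of these genes differed by library as well as by line. Oas3 measured 27.3 and 11.1 CPM in T69A and 6.24, 0.957 and 1.58 CPM in T6-LOH (log2 fold change 2.60 ± 0.27 SE, adjusted p = 0.00059). Ifit3 measured 4.55 and 1.03 CPM in T69A and 0.909, 0.102 and 0.206 CPM in T6-LOH (log2 fold change 2.47 ± 0.39 SE, adjusted p = 0.00038). Irf7, a transcription factor that amplifies the response, measured 45.7 and 23.9 CPM in T69A and 19.5, 9.4 and 10.5 CPM in T6-LOH (log2 fold change 1.24 ± 0.093 SE, adjusted p = 2.8e-06). In both lines the library grown with Rosa PSCs was the highest for these 3 genes, and without the genotype covariate the calls of Oas3 (2.67, adjusted p = 0.055), Ifit3 (2.71, adjusted p = 0.061) and Irf7 (1.39, adjusted p = 0.052) were lost. Ifitm3, which blocks viral entry and has close relatives that can share reads, measured 8.22 and 3.97 CPM in T69A and 0.176, 0.0342 and 0.0685 CPM in T6-LOH (log2 fold change 5.78 ± 0.37 SE, adjusted p = 9.6e-07). Its relatives Ifitm1 and Ifitm2, named after their values were seen, were called lower (-1.81 ± 0.33 and -0.23 ± 0.078 SE, adjusted p = 0.00096 and 0.026). Ifitm2 was far more abundant, at 150 and 106.5 CPM in T69A and 161, 127 and 138 CPM in T6-LOH. The sharing of reads between them was not tested. The RNA sensor Ifih1 was steadier, at 25.6 and 21.2 CPM in T69A and 10.6, 8.61 and 9.87 CPM in T6-LOH (log2 fold change 1.22 ± 0.11 SE, adjusted p = 7.1e-06). Isg15, a ubiquitin-like modifier, overlapped between the lines, at 5.43 and 1.49 CPM in T69A and 4.13, 0.82 and 1.23 CPM in T6-LOH (adjusted p = 0.18). Stat2 measured 43.8 and 19 CPM in T69A and 14.7, 10.7 and 10.3 CPM in T6-LOH (log2 fold change 1.18 ± 0.16 SE, adjusted p = 0.00064). Bst2 measured 24.9 and 22.8 CPM in T69A and 18.9, 11.7 and 14.4 CPM in T6-LOH (log2 fold change 0.62 ± 0.13 SE, adjusted p = 0.0025). Oas3, Ifit3, Bst2, Stat2 and Isg15 were named after their values were seen.

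T6-LOH organoids grown with PSC5 lines stood apart from those grown with PSC4 lines. There Oas3 was at 82.1, 45.3 and 1.67 CPM and Irf7 at 157, 80.0 and 10.1 CPM, so libraries 14 and 15 were above both T69A libraries and library 16 was low. With these 3 libraries added to T6-LOH, 1 of 36 genes of the list was called higher and none lower, and the median was −0.78. T12-LOH was low and variable, with Oas3 at 2.18, 2.39 and 6.51 CPM, and 3 of 32 genes were higher in T69A against it and 3 lower. Without T69A library 2 the count against T6-LOH was 17 of 33 higher and 1 lower, and without T69A library 4 it was 14 of 34 higher and 1 lower, where the call of Bst2 was lost (log2 fold change 0.38, adjusted p = 0.13).

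Antigen presentation genes were more often lower: of 21 genes tested 3 were higher in T69A and 9 lower, or 1 and 7 without T69A library 4. Psmb8, a subunit of the immunoproteasome, had 3 counts over the T69A libraries (0.133 and 0 CPM) and 2.2, 1.91 and 1.78 CPM in T6-LOH (adjusted p = 0.00011), a ratio of 0.0311 T69A over T6-LOH (95% interval 0.00636 to 0.0924). The non-classical H2-Q7 and H2-Q4, whose reads can be shared with neighbouring copies, had log2 fold changes of -2.76 ± 0.29 and -1.02 ± 0.12 SE (adjusted p = 2.8e-05 and 7.4e-05). Cd274, the checkpoint ligand PD-L1, measured 8.92 and 5.25 CPM in T69A and 3.28, 3.66 and 2.67 CPM in T6-LOH (log2 fold change 1.04 ± 0.23 SE, adjusted p = 0.0031; named after its values were seen). Its call was lost without T69A library 2 (log2 fold change 0.73, adjusted p = 0.082) or T6-LOH library 6 (0.72, adjusted p = 0.057). Relative to the chromosome medians described below the list's median was 0.00, against −0.19 without that step. With all 6 T6-LOH libraries 7 of 22 genes were lower in T69A and none higher, and the median, without that step, was −0.47.

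**Figure D3:**
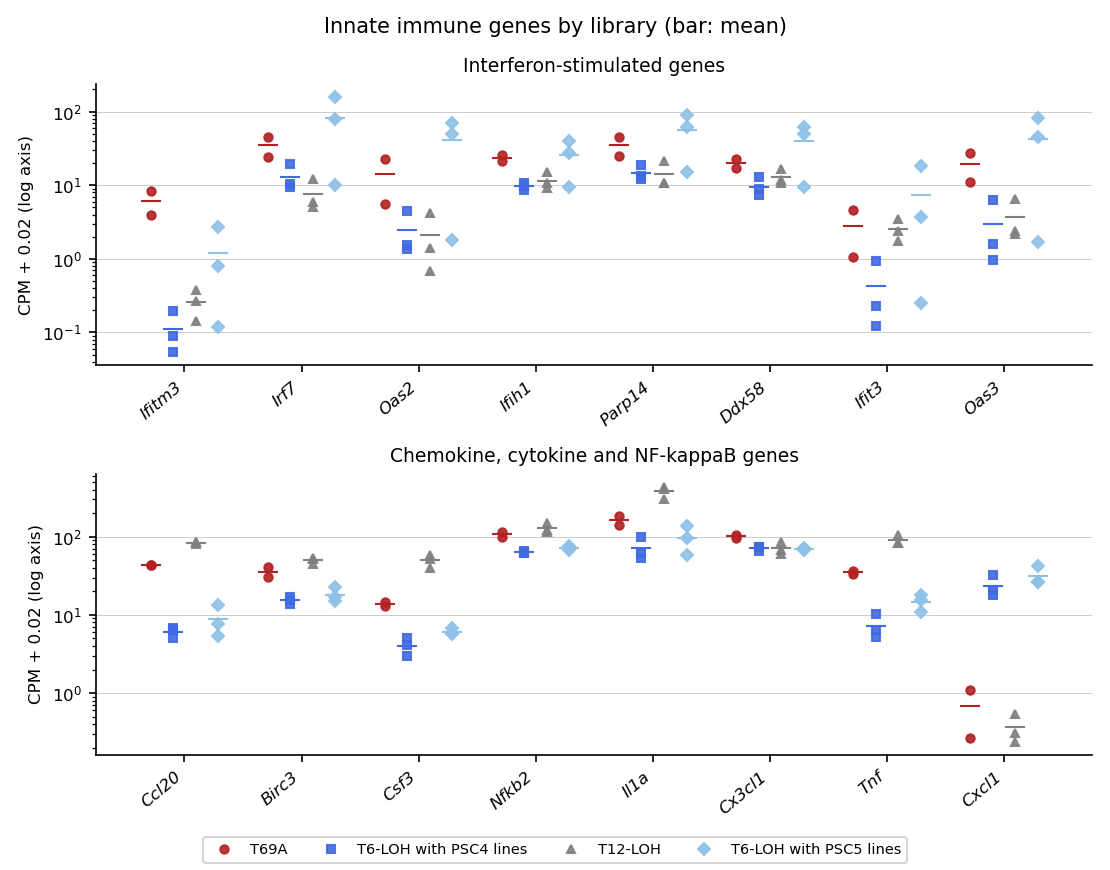
Interferon-stimulated genes (top) and chemokine, cytokine and NF-kappaB genes (bottom) in CPM + 0.02 on a log axis, 1 point per library and a bar at the mean, for T69A, T6-LOH with PSC4 lines, T12-LOH and T6-LOH with PSC5 lines. In the top panel 2 of the 3 PSC5 libraries lie above T69A for Irf7, Oas2 and Oas3; in the bottom panel T69A lies between T6-LOH and T12-LOH for Ccl20, Csf3, Il1a and Tnf.

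Chemokine, cytokine and NF-kappaB genes were higher in T69A for 19 of 32 tested and lower for 1, with a median of 0.42 on the log2 scale. Ccl20, which attracts lymphocytes and dendritic cells, measured 43.6 and 43.7 CPM in T69A and 5.1, 6.36 and 6.78 CPM in T6-LOH (log2 fold change 2.87 ± 0.11 SE, adjusted p = 3.5e-08). Csf3, the granulocyte colony-stimulating factor, measured 14.6 and 13.1 CPM in T69A and 4.98, 2.94 and 4.11 CPM in T6-LOH (log2 fold change 1.73 ± 0.17 SE, adjusted p = 1.4e-05). Il1a measured 184 and 140.4 CPM in T69A and 98.4, 53.9 and 62.7 CPM in T6-LOH (log2 fold change 1.10 ± 0.10 SE, adjusted p = 3.4e-05). Birc3, an inhibitor of apoptosis, measured 41.6 and 30.2 CPM in T69A and 17.1, 13.8 and 15.3 CPM in T6-LOH (log2 fold change 1.15 ± 0.10 SE, adjusted p = 6.0e-06). Nfkb2 measured 114 and 99.8 CPM in T69A and 62.3, 62.7 and 66 CPM in T6-LOH (log2 fold change 0.73 ± 0.075 SE, adjusted p = 2.4e-05). Tnf measured 36.9 and 33.7 CPM in T69A and 6.45, 5.26 and 10.2 CPM in T6-LOH (log2 fold change 2.28 ± 0.32 SE, adjusted p = 0.0081; named after its values were seen).

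The 1 gene of the list that fell (0 to 3 with any 1 of the 5 libraries left out) was the neutrophil chemokine Cxcl1, at 1.06 and 0.248 CPM in T69A and 18.1, 21 and 32.1 CPM in T6-LOH (log2 fold change -5.14 ± 0.68 SE, adjusted p = 0.013). Its relative Cxcl2 rose, at 12.7 and 9.96 CPM in T69A and 1.73, 2.02 and 3.25 CPM in T6-LOH (log2 fold change 2.30 ± 0.28 SE, adjusted p = 0.00033). T12-LOH stood higher than T69A for most of the list, with 4 of 34 genes higher in T69A and 25 lower, Ccl20 at 80.8, 86.2 and 85.8 CPM and Csf3 at 40.2, 51.3 and 57.6 CPM, while Cxcl1 was low there too (0.528, 0.218 and 0.292 CPM). Both Cxcl genes were named after their values were seen, and without T6-LOH library 7 the call of Cxcl1 was lost (log2 fold change −5.24, adjusted p = 0.068), as it was with the PSC line as covariate (−5.24, adjusted p = 0.086). With the PSC5 libraries added to T6-LOH, 16 genes of the list were higher in T69A and 4 lower.

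Metabolic lists are set beside the 26.9% higher and 28.6% lower of all genes tested, and glycolysis and hypoxia genes stood near these shares. For glycolysis and hypoxia 10 of 35 tested were higher in T69A and 12 lower, but 4 and 10 without T69A library 4, and 6 and 11 both without T6-LOH library 7 and with all 6 T6-LOH libraries. Ndrg1, a hypoxia-induced gene, measured 213 and 171 CPM in T69A and 599, 595 and 541 CPM in T6-LOH (log2 fold change -1.64 ± 0.085 SE, adjusted p = 2.4e-07). Hif1a, the hypoxia-inducible factor subunit, measured 159 and 138 CPM in T69A and 329, 237 and 243 CPM in T6-LOH (log2 fold change -0.92 ± 0.076 SE, adjusted p = 5.7e-06). For cholesterol synthesis 11 of 26 were higher and 6 lower, and none reached 2-fold. Without T69A library 4 or T6-LOH library 7 the number lower was 3. Pmvk, phosphomevalonate kinase, measured 96.6 and 72.3 CPM in T69A and 57.2, 46.7 and 46.9 CPM in T6-LOH (log2 fold change 0.67 ± 0.069 SE, adjusted p = 2.3e-05). Sqle, squalene epoxidase, was lower, at 399 and 405 CPM in T69A and 731, 741 and 747 CPM in T6-LOH (log2 fold change -0.89 ± 0.066 SE, adjusted p = 2.7e-06). Like Myc, both Sqle and Ndrg1 lie on chromosome 15 between Med30 and St3gal1, where the window median was −0.84. The part of their position was not tested.

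Detoxification genes were called higher in T69A for 16 of 41 and lower for 9. Mgst1, a membrane glutathione transferase, was at 0.486 and 0.124 CPM in T69A and 23.2, 22.6 and 21.9 CPM in T6-LOH (log2 fold change -6.25 ± 0.26 SE, adjusted p = 1.4e-07). The carbonyl reductase Cbr1 was at 1.77 and 2.69 CPM in T69A and 29.9, 30.6 and 31.8 CPM in T6-LOH (log2 fold change -3.77 ± 0.14 SE, adjusted p = 3.7e-08). Haem oxygenase, Hmox1, was higher, at 101 and 75.5 CPM in T69A and 49.7, 34 and 37.7 CPM in T6-LOH (log2 fold change 1.04 ± 0.073 SE, adjusted p = 1.8e-06). For ATF4 and amino acid stress 12 of 27 were higher and 4 lower. Asns, asparagine synthetase, measured 150.1 and 137 CPM in T69A and 79.7, 74.3 and 64.5 CPM in T6-LOH (log2 fold change 0.94 ± 0.077 SE, adjusted p = 5.2e-06). The RNA of Atf4 itself measured 321 and 309 CPM in T69A and 517, 475 and 491 CPM in T6-LOH (log2 fold change -0.67 ± 0.065 SE, adjusted p = 1.6e-05). Atf4 lies on chromosome 15 between H1f0 and Ep300, where the window median was −0.48, and the part of its position was not tested.

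Imprinted genes, read from 1 parental copy, included genes without a read in one line. Mest had 8.83 and 10.1 CPM in T69A and no read in T6-LOH, at least 294-fold higher, like Zrsr1 above, and was at 7.99, 7.43 and 7.92 CPM in T12-LOH. Plagl1 measured 15.9 and 19.4 CPM in T69A and 68.1, 79.3 and 76.5 CPM in T6-LOH (log2 fold change -2.06 ± 0.080 SE, adjusted p = 4.3e-08). Of 14 imprinted genes tested 7 were higher and 6 lower, and Gnas above is one of them. On the X chromosome Kdm6a, a histone demethylase, measured 86 and 83.4 CPM in T69A and 42.8, 44.8 and 47.9 CPM in T6-LOH (log2 fold change 0.90 ± 0.073 SE, adjusted p = 4.6e-06). The Y-linked Ddx3y had 0 counts in all 5 libraries and 15.4, 21.2 and 22.8 CPM in T12-LOH.

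**Figure D4:**
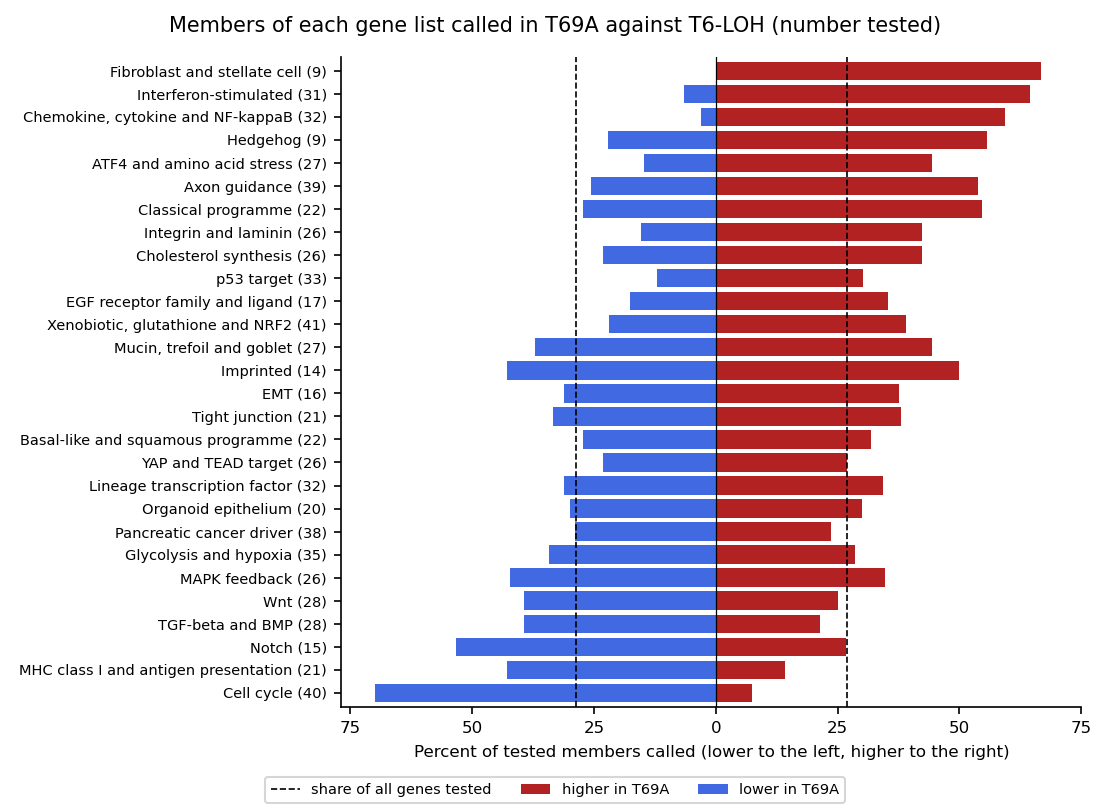
Share of tested members of each list that were called higher (right) or lower (left) in T69A against T6-LOH; dashed lines mark the 26.9% and 28.6% of all genes tested, and the number tested is in brackets. Interferon-stimulated and chemokine genes reach furthest to the right among lists of 20 or more, and cell cycle genes furthest to the left.

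Position on the chromosome carried a pattern of its own, ordered by GRCm38 gene positions. The median log2 fold change over all genes tested was −0.47 on chromosome 15 (552 genes), −0.40 on chromosome 17 (722 genes), −0.35 on chromosome 2 (1102 genes), −0.31 on chromosome 1 (826 genes), −0.30 on chromosome 5 (891 genes) and −0.21 on chromosome 14 (491 genes). It was 0.31 on chromosome 19 (503 genes), and between 0.03 and 0.19 on the others. On chromosome 15 64.3% of genes were called lower in T69A, where 28.6% of all genes were, and 4.71% were called higher. Each T69A library gave nearly the same median (genes whose mean log2 CPM reached 3), −0.47 and −0.48 on chromosome 15, while the T6-LOH libraries lay at 0.01, −0.01 and 0.00 around their own mean.

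The level changed along chromosomes in steps when medians were taken over windows of 40 neighbouring genes. Chromosome 9 began near 0, reached 0.86 in the window from Ireb2 to Adpgk, and was negative beyond Myo5a, with −0.49 in the window from Ip6k2 to Gpd1l. On chromosome 2 the windows from Gpd2 to Depdc7 stood at 0.16, 0.23 and 0.35 between windows of −0.48 and −0.31. The lowest window of all was on chromosome 15, from Med30 to St3gal1, at −0.84. Against T12-LOH the chromosome 15 median was 0.09, the chromosome 17 median −0.32 and the chromosome 19 median 0.25. No DNA measurement was analysed here.

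**Figure D5:**
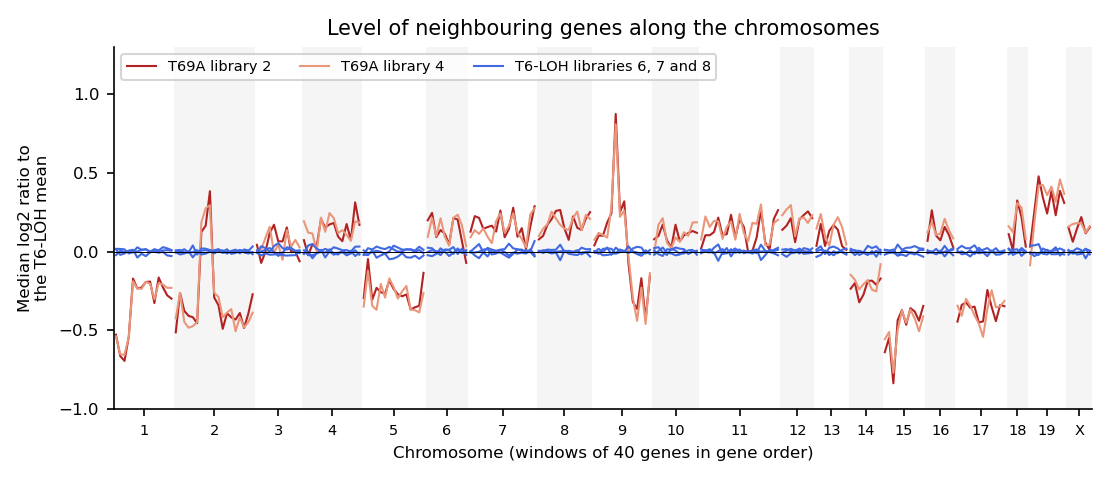
Median log2 ratio of each library to the mean of the T6-LOH libraries over windows of 40 neighbouring genes, chromosomes 1 to 19 and X in gene order (log2(CPM + 1), genes whose mean log2 CPM reached 3). T69A libraries 2 and 4 trace the same steps, down to −0.84 and −0.77 on chromosome 15 and up to 0.88 and 0.81 on chromosome 9, and the T6-LOH libraries stay near 0.

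The response of the organoids to Egfr-knockout PSCs was compared between the lines by an interaction term over the 11 organoid libraries. It was called for 6 of 15332 genes (0.0391%), and 1239 had an unadjusted p under 0.05. T69A has 1 library per PSC genotype, so its spread was borrowed from the other co-cultures. The strongest of the 6 with a named function was Spp1, osteopontin, a secreted phosphoprotein, at 527 and 159 CPM in T69A and 799, 576 and 616 CPM in T6-LOH (interaction −1.31 ± 0.12 SE on the log2 scale, adjusted p = 0.0033). Both T69A libraries were under the 3 T6-LOH libraries, the one grown with clone B4 furthest. Between the lines alone, with both genotypes in the fit, Spp1 was not called (log2 fold change −1.33 ± 0.46 SE, adjusted p = 0.13). That fold change was −0.62 without T69A library 4, −1.91 without T69A library 2 and −1.92 without T6-LOH library 6, and was called in each of these.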

How the data were processed

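RNA from flow-sorted organoids was sequenced after 3.5 days of co-culture, and 5 organoid libraries, 2 of T69A and 3 of T6-LOH, enter the main comparison. Per the submitters' processing notes, reads were quantified with Salmon 1.9.0 on a GRCm39 (mm39) reference; their annotation and strand setting were not given in the sources used. The deposited files give estimated counts and TPM per transcript. Estimated counts were summed per gene with GENCODE M21 names and rounded to whole numbers; transcripts without a match held 0.364 to 0.386% of reads. Chromosome and gene order come from that annotation (GRCm38) and promoters from RefSeq (GRCm38.p6).

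Genes were tested with edgeR 4.0.16 (quasi-likelihood, TMM scaling, filter on low counts, R 4.3.3), with PSC genotype as covariate, leaving 2 residual degrees of freedom among libraries. The interaction was fitted over all 11 organoid libraries. P-values were Benjamini-Hochberg adjusted over all genes tested, with a threshold of 0.05. CPM used TMM sizes over the 11 organoid libraries. Alternatives were DESeq2 1.42.0, limma 3.58.1, other scalings, filters, samples and covariates, and leaving out each library. The fit was tested on simulated data. Other steps used Python 3.11.15, pandas 2.3.3, scipy 1.17.1 and matplotlib 3.10.9.

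Named genes are the 12 per direction with the largest difference in mean log2(CPM + 1) among called protein-coding genes whose lines did not overlap and whose mean log2 CPM was at least 1, up to 6 genes of smallest p per list, 11 genes of fixed interest and the 5 genes of smallest interaction p. Predicted genes and families with near-identical copies were left out of the first set, and some named genes are not reported here. Members and lists were chosen with earlier results of these data known. Counting intervals and floors cover counting error only, and no library pair was so alike as to be one library deposited again.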

Additional observations from a re-analysis of the deposited data

Results flagged for a closer look

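For 6 genes the difference between organoids grown with Egfr-knockout and with wild-type PSCs was not the same in T69A and T6-LOH by the test of the interaction (edgeR, adjusted over 15332 genes), which rests on 1 T69A library per PSC genotype. Values below are the log2 interaction, the change in T69A minus that in T6-LOH. Spp1, osteopontin, had −1.307 (adjusted p = 0.0033) and was described above. Atg9b, an autophagy lipid scramblase, had −1.112 (adjusted p = 0.019), with 74.0 CPM in T69A with clone B4 and 232 CPM in T69A with Rosa PSCs, against 126 and 124 CPM in T6-LOH with the knockout clones and 181 CPM with Rosa PSCs. Clca3b, of a family with close copies, had −1.01 (adjusted p = 0.038), with 42.3 CPM in T69A with clone B4 and 58.0 CPM with Rosa PSCs, against 104 and 99.3 CPM in T6-LOH with the knockout clones and 68.9 CPM with Rosa PSCs. The glucuronosyltransferase Ugt1a7c, which shares exons with its neighbours, had 1.339 (adjusted p = 0.038), with 32.4 CPM in T69A with clone B4 and 14.4 CPM with Rosa PSCs, against 54.4 and 52.5 CPM in T6-LOH with the knockout clones and 60.0 CPM with Rosa PSCs.

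Gm5537 had 14.96 (adjusted p = 7.6e-09), with 121 CPM in T69A with clone B4 and 0 CPM with Rosa PSCs, against 58.5 and 57.5 CPM in T6-LOH with the knockout clones and 67.1 CPM with Rosa PSCs. BC005561 had 18.25 (adjusted p = 0.019), with 1.70 CPM in T69A with clone B4 and 0 CPM with Rosa PSCs, against 0 and 0 CPM in T6-LOH with the knockout clones and 3.52 CPM with Rosa PSCs. A fitted value against a library at 0 depends on the prior count. Gm5537 and BC005561 were not checked for near-identical copies and are uncertain for that reason.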

How the results depend on the processing

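The number of genes called between T69A and T6-LOH lay between 5511 and 7878 under 16 alternatives (7723 as reported), and between 5511 and 6797 with 1 library left out. Between T69A and T12-LOH it lay between 5520 and 8507 under 15 (7968 as reported), and between 5520 and 7309 without 1 library. The interaction was called for 6 genes, for 45 with DESeq2, 9 with RLE scaling, 7 with the stricter filter, 4 with the T69A and T6-LOH libraries alone, and 8 and 6 without T6-LOH library 7 or 8, the ones that could be left out. Library-size scaling moved the median of all genes by −0.044. Of 139 tested genes taken up in this check 132 were called. Of these 111 kept the call and its direction under every alternative of that comparison in which they had an adjusted p. Alternatives without one for a gene were passed over. The call was lost for 21 under at least 1 alternative (7 of them without the genotype covariate), and 2 others gained one. With all 6 T6-LOH libraries the direction turned for Bst2 (−0.34), Ifit3 (−0.59), Irf7 (−0.54), Irf9 (−0.21), Oas2 (−0.99) and Oas3 (−0.41), none of them then called, and the median of the interferon list became −0.78; the cause was not tested. Relative to the chromosome medians, the list medians turned to 0.0226 for Notch genes and 0.00219 for antigen presentation genes, a step added after the data were seen, as were library-size scaling and the list values with 1 library left out or with all 6 T6-LOH libraries. No paired analysis was possible by replicate number, because the labels share none. Paired by the PSC line, library 2 with 6 and 4 with 8, and with 1 residual degree of freedom, the comparison called 6905 genes and lost Axin2, Cxcl1, Myh10, Sox4 and Tff1 of the named genes. With 2 T69A libraries, 1 per genotype, the spread between T69A cultures of one kind was not measured.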
